A study of Mus musculus with 7 samples.

Results

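Integrins are cell surface receptors built from an alpha and a beta subunit, and they hold cells to the extracellular matrix or to other cells. The pairing of subunits sets the ligand, so that alpha 4 with beta 1 binds Vcam1 and fibronectin, while alpha 6 pairs with beta 1 or beta 4 and binds laminins. In melanoma cells, integrins are known for attachment, migration and spread to other organs. The genes described here were 10 integrin genes chosen by symbol with their measured difference between the groups already known, 7 of alpha subunits and 3 of beta subunits, out of 56953 genes in each count file. All 10 passed the filter on low counts, which left 13990 genes.

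RNA was measured in CD45-negative CD31-negative live cells sorted from tumours of B16, a mouse melanoma line, 5 days after treatment. For the 3 AAV-iIL12 libraries the mice had 8 Gy of radiotherapy and AAV-iIL12, an adeno-associated virus (AAV) vector named for interleukin 12. For the 4 AAV-iLuc libraries they had that radiotherapy and AAV-iLuc as the control. All 7 mice were thus irradiated, and no library shows the level without radiotherapy. The titles of the AAV-iIL12 libraries also carry WT, which the labels do not explain. Strain, age and sex are not given in the sources used here.

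Each library held between 16356653 and 19080587 counts. Melanocyte genes were abundant in both groups, with Dct between 7575 and 8339 CPM (the count relative to the library total after TMM scaling) in the 7 libraries. Of the markers the sort removed, Ptprc, which encodes CD45, reached at most 2.44 CPM and Pecam1, which encodes CD31, at most 0.364 CPM. Because the 10 genes were selected on the contrast of AAV-iIL12 with AAV-iLuc, it is described for them without a test. The comparison touched much of the transcriptome: 47.2% of tested genes passed a Benjamini-Hochberg adjusted p of 0.05 in the edgeR quasi-likelihood test, 23.5% higher and 23.7% lower in AAV-iIL12. Of these calls 49.8% were higher, against 36.0% with library size as the only scaling and 38.5% with upper quartile scaling.

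The bases just upstream of the start are shown for a pair of integrin genes that were lower in AAV-iIL12 tumours and a pair of abundant subunits whose groups overlapped. RefSeq promoter windows on GRCm38.p6 were found for 7 of the 10 genes, and the 250 bases before the start are printed 5′ to 3′ on the plus strand, the strand of all 4 genes. The windows are chr2:79255176-79255425 for Itga4, chr16:33829415-33829664 for Itgb5, chr2:83724147-83724396 for Itgav and chr8:128685404-128685653 for Itgb1. Capitals mark the E-box CANNTG, a motif of basic helix-loop-helix factors, and the GC box GGGCGG, on either strand.
Itga4: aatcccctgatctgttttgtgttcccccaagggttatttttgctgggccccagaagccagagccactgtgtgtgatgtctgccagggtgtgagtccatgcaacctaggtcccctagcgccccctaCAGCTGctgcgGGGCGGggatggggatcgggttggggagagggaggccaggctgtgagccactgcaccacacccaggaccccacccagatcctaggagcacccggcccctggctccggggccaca
Itgb5: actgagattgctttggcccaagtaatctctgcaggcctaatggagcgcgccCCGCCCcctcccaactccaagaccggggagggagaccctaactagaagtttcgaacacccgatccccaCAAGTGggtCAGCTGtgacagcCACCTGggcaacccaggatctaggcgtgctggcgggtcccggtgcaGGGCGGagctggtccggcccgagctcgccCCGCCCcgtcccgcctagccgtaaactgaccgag
Itgav: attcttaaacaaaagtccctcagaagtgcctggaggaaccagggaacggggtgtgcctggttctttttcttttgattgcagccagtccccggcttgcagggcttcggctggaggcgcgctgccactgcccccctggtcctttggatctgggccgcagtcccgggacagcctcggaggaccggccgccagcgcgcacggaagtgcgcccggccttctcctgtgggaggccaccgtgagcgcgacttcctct
Itgb1: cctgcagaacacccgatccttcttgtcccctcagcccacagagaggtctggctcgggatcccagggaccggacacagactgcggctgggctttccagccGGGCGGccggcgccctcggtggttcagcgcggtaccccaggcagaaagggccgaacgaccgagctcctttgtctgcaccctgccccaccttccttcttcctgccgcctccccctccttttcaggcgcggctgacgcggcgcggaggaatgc
Itga4 had 1 E-box and 1 GC box, at 125 and 114 bases before the start, and no overlap between them. Itgb5 had 3 of each, Itgb1 had 1 GC box, and Itgav had neither. The motifs were also in the windows not printed. Itga9, whose groups overlapped, had 3 E-boxes and no GC box. Itga3, whose groups also overlapped, had 1 E-box and 3 GC boxes in 1 window and 1 of each in another. Itga5, lower in AAV-iIL12, had 1 E-box and 2 GC boxes. Of 32851 windows of the same length, 66.2% held the E-box and 32.7% the GC box, so both motifs are common. The motif TTCNNNGAA of STAT factors, held by 7.02% of windows, and the AP-1 motif TGANTCA, held by 6.75%, were in none of the 4 printed windows.

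The alpha 4 gene showed the widest difference of the set. Itga4 (ENSMUSG00000027009, chromosome 2, 79085770 to 79163467 on GRCm39) stood at 17.9, 26.2 and 25.5 CPM in the AAV-iIL12 libraries, against 160.0, 193, 166 and 137 CPM in the AAV-iLuc libraries. The groups lay far apart, with the highest AAV-iIL12 library below every AAV-iLuc library. Its mean was 23.2 ± 4.62 CPM in AAV-iIL12 (SD, n = 3) and 164 ± 23.2 CPM in AAV-iLuc (SD, n = 4), which put the AAV-iIL12 mean at 14.2% of the AAV-iLuc mean. The log2 fold change, AAV-iIL12 over AAV-iLuc, was -2.82 ± 0.15 (SE), the 13th lowest of 13990 genes. In bulk RNA a smaller number of cells with the transcript and less transcript per cell cannot be told apart.

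Itga6 encodes the alpha 6 subunit, a laminin receptor. Itga6 (ENSMUSG00000027111, chromosome 2, 71575960 to 71688760) stood at 32.7, 34.7 and 36.7 CPM in AAV-iIL12 and at 66.7, 68.4, 75.6 and 68.1 CPM in AAV-iLuc. Within each group the libraries were close together, with a coefficient of variation of 5.74% in AAV-iIL12 and 5.73% in AAV-iLuc, and the groups did not overlap. The AAV-iIL12 mean was 49.8% of the AAV-iLuc mean, a log2 fold change of -1.01 ± 0.07 (SE).

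**Figure D1:**
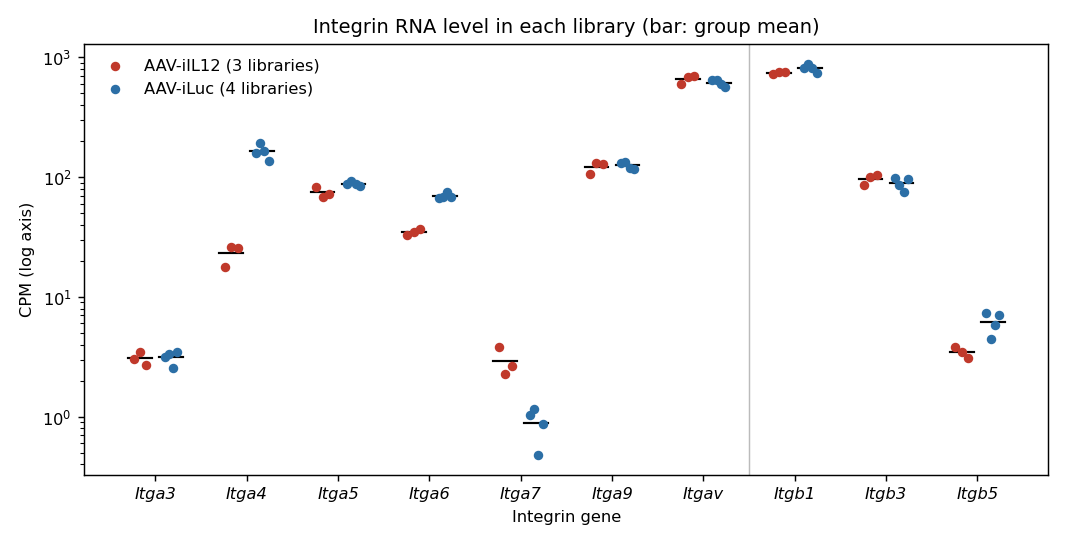
CPM on a log axis for the 10 integrin genes, alpha subunits left of the line and beta subunits right of it, with AAV-iIL12 in red (n = 3) and AAV-iLuc in blue (n = 4), a point per library and a bar at each group mean. Itga4, Itga5, Itga6 and Itgb5 lie lower in AAV-iIL12 without overlap, Itga5 by a narrow gap. Itga7 separates in the other direction at a level below 4 CPM, and Itgav and Itgb1 lie near the top in both groups.

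The other fibronectin and tenascin receptors differed little. Itga5 (ENSMUSG00000000555, chromosome 15), whose product pairs with beta 1 to bind fibronectin, stood at 83.3, 68.4 and 72.5 CPM in AAV-iIL12 and at 87.0, 92.8, 87.0 and 84.1 CPM in AAV-iLuc. The groups did not overlap, but the nearest libraries were within 1 CPM of each other (83.3 in AAV-iIL12 and 84.1 in AAV-iLuc), and the log2 fold change was -0.23 ± 0.07 (SE). Itga9, which pairs with beta 1 to bind tenascin C, Vcam1 and osteopontin, averaged 122 ± 14.3 CPM with AAV-iIL12 and 126 ± 8.34 with AAV-iLuc. Those groups overlapped, and the log2 fold change was -0.04, beside -2.82 for the related alpha 4 gene.

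Of the vitronectin receptor genes, Itgav and Itgb3 overlapped between groups and Itgb5 did not. Itgav (ENSMUSG00000027087, chromosome 2), the alpha partner of beta 3 and beta 5, stood at 603, 686 and 701 CPM in AAV-iIL12 and at 644, 652, 601 and 569 CPM in AAV-iLuc. The libraries of the groups interleave, and the log2 fold change was 0.11 ± 0.07 (SE). Itgb3, the beta subunit of the alpha v beta 3 receptor, averaged 96.5 ± 9.86 CPM with AAV-iIL12 and 89.0 ± 11.1 with AAV-iLuc, also with overlap. Itgb5, another partner of alpha v, was lower, at 3.84, 3.48 and 3.08 CPM in AAV-iIL12 against 7.38, 4.44, 5.84 and 7.06 CPM in AAV-iLuc. Its groups did not overlap, but it rested on 183 counts in AAV-iIL12 and 458 in AAV-iLuc, and its log2 fold change was -0.84 ± 0.20 (SE).

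Itgb1 encodes the shared partner of most alpha subunits listed here. Itgb1 (ENSMUSG00000025809, chromosome 8) stood at 720.0, 749.8 and 759 CPM in AAV-iIL12 and at 810.2, 889, 821 and 746 CPM in AAV-iLuc. The lowest AAV-iLuc library lay inside the AAV-iIL12 range, and the log2 fold change was -0.14 ± 0.07 (SE).

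Beside Itga6, the members Itga3 and Itga7 also encode alpha subunits of laminin receptors, and both were scarce. Itga3 averaged 3.07 ± 0.39 CPM with AAV-iIL12 and 3.12 ± 0.40 with AAV-iLuc, with overlapping groups and a log2 fold change of -0.03 ± 0.18 (SE). Itga7 (ENSMUSG00000025348, chromosome 10), best known from skeletal muscle, was the only member higher in every AAV-iIL12 library than in every AAV-iLuc library. It had 63, 42 and 48 counts in AAV-iIL12 and 20, 21, 8 and 17 counts in AAV-iLuc, or 2.92 ± 0.82 and 0.886 ± 0.295 CPM, and a log2 fold change of 1.70 ± 0.30 (SE). Of the 4 skeletal muscle markers, Acta1 stood at 0.244, 0.543 and 0.714 CPM in AAV-iIL12 and at 0.260, 0.329, 0.179 and 0.309 CPM in AAV-iLuc, which overlap. Ckm ran from 0.122 to 0.543 CPM in AAV-iIL12 and from 0.384 to 0.676 CPM in AAV-iLuc, Myod1 had 1 count in all, and Myh4 had 0. The part of muscle RNA in the Itga7 difference was not tested.

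Set side by side, Itga4 at -2.82 and Itga6 at -1.01 stood below the other 8 members, whose log2 fold changes ran from -0.84 to 1.70 with a median of -0.03. Itga6 lay near the lowest of these, Itgb5. With libraries left out, Itga6 ran from -1.04 to -0.96 and Itgb5 from -0.97 to -0.74, ranges that meet. The other 5 alpha subunits had a median of -0.03 and the 3 beta subunits one of -0.14. The median of all 10 was -0.09, and that of the 13990 tested genes was -0.01. Groups did not overlap for 5 members, Itga4, Itga5, Itga6 and Itgb5 being lower and Itga7 higher in AAV-iIL12, against 52.5% of tested genes. Nothing is read from this count because the members were chosen with this contrast known. With libraries left out, the log2 fold change of Itga5 ran from -0.31 to -0.17 and that of Itgb1 from -0.18 to -0.09. That of Itgb1 was -0.23 under scaling by library size and -0.21 by the upper quartile.

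**Figure D2:**
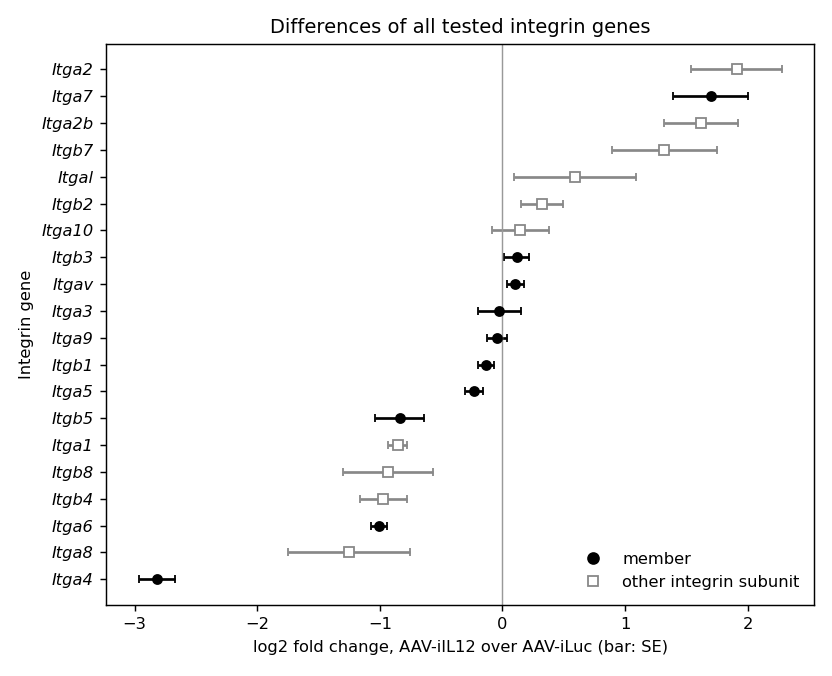
Log2 fold change of AAV-iIL12 over AAV-iLuc, with its SE as a bar, for the 20 integrin genes that passed the filter on low counts. Filled circles are the 10 members and open squares the other subunits, and Itga4 lies lowest at -2.82 while Itga2 lies highest at 1.91.

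Levels of different genes were compared as RPKM, that is CPM divided by the summed exon length in kilobases. In AAV-iIL12 the order was Itgb1 (182 ± 5.04 RPKM), Itgav (61.8 ± 4.91), Itgb3 (16.4 ± 1.67), Itga9 (15.8 ± 1.87), Itga5 (15.1 ± 1.57), Itga6 (3.79 ± 0.22), Itga4 (1.66 ± 0.33), Itgb5 (0.975 ± 0.107), Itga3 (0.538 ± 0.069) and Itga7 (0.359 ± 0.100). In AAV-iLuc it was Itgb1 (200.04 ± 14.3 RPKM), Itgav (57.4 ± 3.59), Itga5 (17.8 ± 0.74), Itga9 (16.3 ± 1.08), Itgb3 (15.1 ± 1.88), Itga4 (11.7 ± 1.66), Itga6 (7.62 ± 0.44), Itgb5 (1.74 ± 0.38), Itga3 (0.546 ± 0.070) and Itga7 (0.109 ± 0.036). Itgb1 and Itgav therefore led in both groups. The ranges of Itga5, Itga9 and Itgb3 ran into their neighbours' in both groups, as did those of Itgb3 and Itga4 in AAV-iLuc and of Itga3 and Itga7 in AAV-iIL12. Other neighbours did not overlap. The gap between Itga4 and Itga6 in AAV-iLuc depends on the length used: divided by the longest protein-coding transcript, they stood at 16.8 ± 2.38 and 16.2 ± 0.93 CPM per kilobase. On that length Itgb3, at 15.4 ± 1.92 in AAV-iLuc, came below both.

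The makeup of the alpha subunits follows in part from the lower Itga4 and Itga6, which are in the sum, and is given as a description. Of the summed RPKM of the 7 alpha members, Itga4 made up 1.38%, 1.85% and 1.77% in the AAV-iIL12 libraries, against 10.03%, 11.6%, 10.9% and 9.47% in the AAV-iLuc libraries. Itga6 made up 3.83 ± 0.08% in AAV-iIL12 (SD, n = 3) and 6.86 ± 0.61% in AAV-iLuc (SD, n = 4), and Itgav 62.3 ± 1.42% and 51.5 ± 0.72%. Itga5 took 15.4 ± 2.50% and 16.0 ± 0.44%, and Itga9 took 16.0 ± 1.05% and 14.6 ± 0.40%, in AAV-iIL12 and AAV-iLuc. The shares of Itga4, Itga6, Itga7 and Itgav did not overlap between groups, although the CPM of Itgav did. The summed alpha level was 99.1 ± 5.72 RPKM in AAV-iIL12 and 112 ± 6.63 RPKM in AAV-iLuc.

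**Figure D3:**
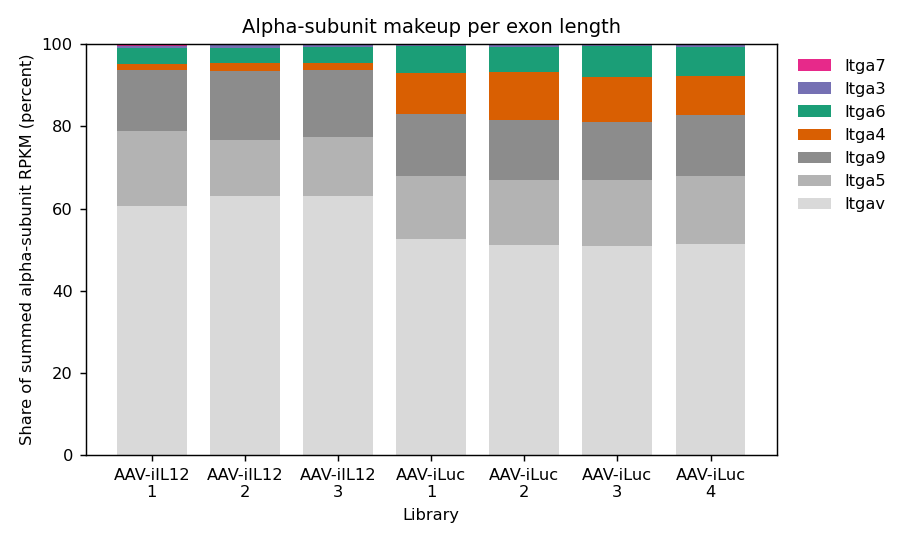
Share of each alpha subunit in the summed RPKM of the 7 alpha members, in percent, for the 3 AAV-iIL12 libraries on the left and the 4 AAV-iLuc libraries on the right. The orange Itga4 band is at most 1.85% in AAV-iIL12 and at least 9.47% in AAV-iLuc.

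Against the shared beta partner, the per-length ratio of Itga4 to Itgb1 was 0.00910 ± 0.00160 in AAV-iIL12 and 0.0585 ± 0.0041 in AAV-iLuc. That of Itga6 to Itgb1 was 0.0208 ± 0.0007 and 0.0382 ± 0.0032 in the same order of groups, and that of Itga5 to Itgb1 was 0.0834 ± 0.0109 in AAV-iIL12 and 0.0891 ± 0.0030 in AAV-iLuc. These are ratios of RNA, and surface receptor was not measured. Itgav to Itgb3 was 3.78 ± 0.09 in AAV-iIL12 and 3.85 ± 0.55 in AAV-iLuc.

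Members also differed in how far libraries of a group spread. Among members above 50 CPM in AAV-iLuc, the coefficient of variation there ran from 4.14% (Itga5) to 14.1% (Itga4), and in AAV-iIL12 from 2.77% (Itgb1) to 19.9% (Itga4). AAV-iIL12 replicate 1 was the lowest of its group for Itga4, Itga6, Itga9, Itgav, Itgb1 and Itgb3 and the highest for Itga5, Itga7 and Itgb5. Itga3 was highest in AAV-iIL12 replicate 2. Exons of the 10 genes shared no base with another gene on the same strand in the files' annotation, and 8.04% of Itga4 exon bases lay opposite a gene on the other strand, which strand-aware counting separates.

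Leukocytes carry alpha 4 integrins too, so leukocyte genes were set beside these results. The list of 11 leukocyte genes summed to between 16.3 and 21.3 CPM in AAV-iIL12 and between 7.62 and 25.3 CPM in AAV-iLuc (two-sided exact permutation test over 35 splits, p = 0.343, adjusted p = 0.686 over 10 marker lists). Its highest gene was Itgb2, averaging 10.99 CPM with AAV-iIL12 and 8.79 with AAV-iLuc. Without Itgb2 the list summed to 9.38, 8.15 and 5.66 CPM in AAV-iIL12 and to 13.7, 0.932, 0.893 and 2.22 CPM in AAV-iLuc. Replicate 1 of AAV-iLuc thus had the highest sum of all 7 libraries, while its 160.0 CPM of Itga4 lay between those of replicates 3 and 4 and its 66.7 CPM of Itga6 was the lowest of its group. In AAV-iLuc replicates 2 and 3, Itga4 stood at 193 and 166 CPM, and the leukocyte list summed to 7.62 and 10.1 CPM with Itgb2 and to 0.932 and 0.893 CPM without it. The part of leukocyte RNA in the Itga4 difference was not tested. Leaving AAV-iLuc replicate 1 out gave log2 fold changes of -2.82 for Itga4 and -1.02 for Itga6.

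**Figure D4:**
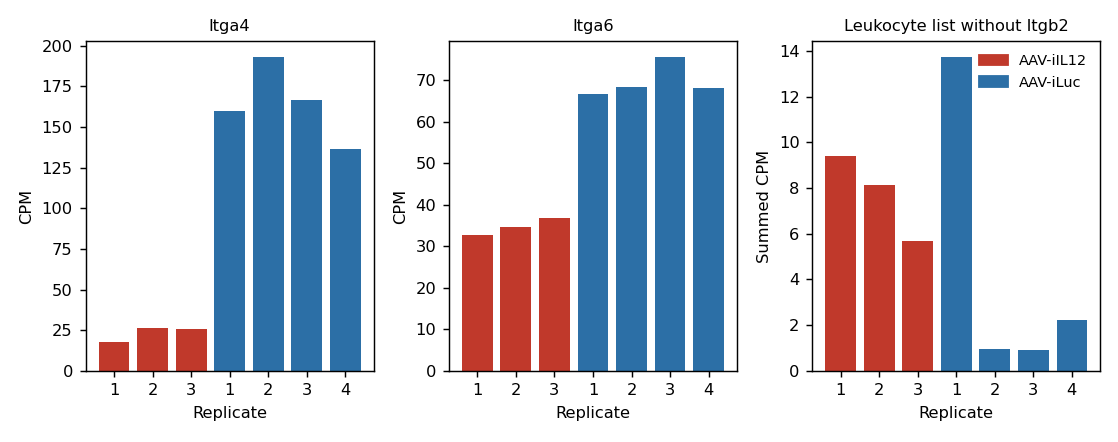
CPM of Itga4 and of Itga6, and summed CPM of the leukocyte list without Itgb2, in each library, with AAV-iIL12 in red on the left and AAV-iLuc in blue on the right. AAV-iLuc replicate 1 has the highest leukocyte sum at 13.7 CPM, and its Itga4 and Itga6 bars stand well above those of AAV-iIL12.

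Other cell types were set beside the integrins in the same way. Endothelium and keratinocytes are rich in alpha 6, and Cdh5, Emcn, Krt5 and Krt1 had 0 counts in all 7 libraries, whereas Vwf, counted here as endothelial, stood between 14.6 and 26.3 CPM. The keratinocyte list, of 5 genes led by Krt10, summed to at most 0.163 CPM in AAV-iIL12 and at most 0.0515 CPM in AAV-iLuc. Fibroblast genes, led by Col3a1, ran from 26.7 to 76.4 CPM in AAV-iIL12 and from 36.1 to 140.2 CPM in AAV-iLuc. Within the fibroblast list Fap ran from 0.549 to 0.914 CPM in AAV-iIL12 and from 0.206 to 0.260 CPM in AAV-iLuc. Lum ran from 5.16 to 6.28 CPM in AAV-iIL12 and from 3.56 to 5.15 CPM in AAV-iLuc. Both were thus higher in every AAV-iIL12 library, and the other fibroblast genes, Col3a1 among them, overlapped between groups. Smooth muscle and pericyte genes, led by Des, ran from 5.99 to 9.14 CPM in AAV-iIL12 and from 6.79 to 9.02 CPM in AAV-iLuc. Within that list Des ran lower in AAV-iIL12, at 3.35 to 5.11 CPM against 5.24 to 7.11 CPM in AAV-iLuc. Tagln, at 0.934 to 1.77 CPM against 0.464 to 0.715 CPM, and Myh11, at 1.26 to 1.68 CPM against 0.357 to 1.196 CPM, were higher in every AAV-iIL12 library than in any AAV-iLuc library. The exact permutation p-values of the sums were 0.257 for keratinocytes and 0.686, 0.686 and 0.914 for endothelium, fibroblasts and smooth muscle.

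Some lists rested on a single gene. The Schwann cell list was nearly all Mbp, at 252 CPM with AAV-iIL12 and 364 with AAV-iLuc on average, and its sum ran from 254 to 282 CPM in AAV-iIL12 and from 360.1 to 403 CPM in AAV-iLuc. The platelet list was nearly all Itga2b, since Pf4, Ppbp and Gp9 each stayed at or below 0.206 CPM, and summed to 5.28 ± 2.32 CPM with AAV-iIL12 and 1.85 ± 0.33 with AAV-iLuc. The 7 melanoma genes summed to 28244 ± 457 CPM with AAV-iIL12 and 24441 ± 1292 with AAV-iLuc. Pmel made most of that gap, at 8595, 7994 and 7851 CPM in AAV-iIL12 against 5566, 5723, 5422 and 5164 CPM in AAV-iLuc. Mlana ran from 853 to 1072 CPM in AAV-iIL12 and from 650 to 756 CPM in AAV-iLuc. Mitf ran from 1199 to 1253 CPM in AAV-iIL12 and from 935 to 1067 CPM in AAV-iLuc. Both were thus also higher in every AAV-iIL12 library, while Dct, Tyrp1, Tyr and Sox10 overlapped between groups. The differences of the Schwann cell, platelet and melanoma sums each had the smallest p that 35 splits allow, 0.0286. Their adjusted p was 0.0952 over the 10 lists. Skeletal muscle and erythroid genes, led by Ckm and Hba-a1, summed to at most 1.09 CPM in either group (p = 0.971 and 0.800, exact permutation test), with Myh4 and Hbb-bt at 0. The part of these cell types in the integrin differences was not tested.

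Among 17 other integrin subunits, 10 passed the filter on low counts, 3 rose and 2 fell (edgeR quasi-likelihood test, adjusted p under 0.05), beside 23.5% and 23.7% of all tested genes. Itga1, a collagen receptor subunit with the highest mean CPM of this list, fell to 39.9 ± 3.78 CPM in AAV-iIL12, against 72.2 ± 4.37 CPM in AAV-iLuc (log2 fold change -0.85 ± 0.08, SE; edgeR adjusted p = 1.73e-05). Itgb4, the other beta partner of alpha 6, fell to 2.23 ± 0.29 CPM in AAV-iIL12, against 4.39 ± 0.74 CPM in AAV-iLuc (-0.97 ± 0.19, edgeR adjusted p = 0.00202). Itgb4 was scarce, with 118 counts in AAV-iIL12 and 321 in AAV-iLuc. Itga6 and Itgb4, which form a laminin receptor together, were thus both lower in every AAV-iIL12 library than in any AAV-iLuc library. The subunits that fell were 4 under scaling by library size alone and by the upper quartile, and 2 under median-of-ratios scaling. Among all 13990 tested genes, 4460, 4225 and 3246 fell under these scalings in that order, against 3316 with TMM.

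The subunits that rose were all scarce, as was Itgb4 among those that fell. Itga2, a collagen receptor subunit, reached 2.36 ± 0.51 CPM with AAV-iIL12 and 0.612 ± 0.330 with AAV-iLuc. Itga2b, the platelet subunit, reached 5.23 ± 2.37 CPM with AAV-iIL12 and 1.69 ± 0.30 with AAV-iLuc (edgeR adjusted p = 0.00146). Itgb7, the lymphocyte partner of alpha 4, reached 1.06 ± 0.32 and 0.417 ± 0.231 CPM in the same order of groups. Its call was lost when replicate 1 or 3 of AAV-iIL12, or replicate 3 or 4 of AAV-iLuc, was left out (adjusted p = 0.0641 to 0.111, edgeR). Itga2 and Itgb7, which make 2 of the 3 rises, passed the filter through the AAV-iIL12 libraries alone, so their calls lend the count no support and their p with all libraries is not given. Without AAV-iLuc replicate 1, the library with the highest leukocyte sum, 5 subunits rose, the added ones being the leukocyte integrin genes Itgb2 and Itgal, of which Itgal also passed the filter through AAV-iIL12 alone.

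Ligands of these receptors were also expressed by the sorted cells. Of 31 ligand genes 26 were tested, 7 rose and 5 fell, with a median log2 fold change of 0.10. These are 26.9% and 19.2% of the list, near the 23.5% and 23.7% of all tested genes. Vcam1 and Tgfbi among the tested genes, and Nedd9 among the adaptor genes, passed the filter through the AAV-iIL12 libraries alone. Vcam1 is among the 7 ligand rises and Nedd9 among the adaptor rises, and for that reason their calls lend the counts no support. Tgfbi did not pass the threshold and is in neither count. Fn1, fibronectin, a ligand of alpha 4 and alpha 5, stood at 395 ± 46.6 CPM with AAV-iIL12 and 372 ± 25.3 with AAV-iLuc and did not pass (edgeR adjusted p = 0.453). Vcam1, the cell surface ligand of alpha 4, stood at 3.23, 0.815 and 1.43 CPM in AAV-iIL12, against 0.676, 0.219, 0.119 and 0.155 CPM in AAV-iLuc, a log2 fold change of 2.57 ± 0.61 (SE), given without a p for that reason. The log2 fold change was 1.90 without AAV-iIL12 replicate 1 and 3.398 without AAV-iLuc replicate 1. It stayed scarce, with 94 counts in AAV-iIL12 and 22 in AAV-iLuc.

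Matrix ligands moved in both directions. Spp1, osteopontin, a ligand of alpha 4, alpha 9 and alpha v integrins, rose to 505 ± 66.2 CPM in AAV-iIL12, against 281 ± 34.6 CPM in AAV-iLuc. Thbs1, thrombospondin, rose to 67.7 ± 3.76 CPM in AAV-iIL12, against 25.9 ± 9.07 CPM in AAV-iLuc. Laminin chains split: Lamb2 rose by 0.52 on the log2 scale and Lamc1 had a log2 fold change of -0.25. Hspg2, perlecan, fell to 189 ± 30.9 CPM in AAV-iIL12, against 350.3 ± 10.99 CPM in AAV-iLuc, and Npnt, nephronectin, and Adam9 had log2 fold changes of -0.49 and -0.55.

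Adaptors that link integrin tails to actin moved in both directions. Of 42 listed genes 39 were tested, 8 rose and 7 fell, with a median log2 fold change of 0.02. These are 20.5% and 17.9% of the list, against 23.5% and 23.7% of all tested genes. With library size only 6 rose and 13 fell, and with upper quartile scaling 6 rose and 12 fell, while genes that fell among all 13990 were 4460 and 4225 under these scalings. Pxn, paxillin, which binds the alpha 4 tail, stood at 105 ± 1.43 CPM with AAV-iIL12 and 96.2 ± 7.13 with AAV-iLuc and did not pass (edgeR adjusted p = 0.108), except with AAV-iLuc replicate 2 left out (0.0251). Flna, filamin A, with the highest mean CPM of the list, stood at 1056 ± 69.9 CPM with AAV-iIL12 and 1153 ± 68.4 with AAV-iLuc and did not pass either (adjusted p = 0.139), though it fell with library size only and with upper quartile scaling (adjusted p = 0.0172 and 0.0319). Talin 2 (Tln2) fell to 36.9 ± 7.65 CPM in AAV-iIL12, against 63.5 ± 2.12 CPM in AAV-iLuc. The parvin gene Parvb, the actin crosslinker Actn1 and Kank2 fell with log2 fold changes of -0.55, -0.26 and -0.22. Sharpin, an inhibitor of integrin activation, rose by 0.56, and Tns3, Git1 and Crkl by 0.37, 0.33 and 0.32 on the log2 scale.

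Membrane partners of integrins gave 4 rises and 5 falls among 20 tested genes, with a median log2 fold change of 0.08. These are 20% and 25% of the list, near the 23.5% and 23.7% of all tested genes. Cd47, a partner of alpha v beta 3 that also signals against phagocytosis, rose by 1.43 ± 0.06 on the log2 scale (SE, edgeR adjusted p = 6.73e-07). The tetraspanin genes Cd82 and Cd63 rose by 0.55 and 0.36, and Slc3a2, the heavy chain of amino acid transporters that binds beta subunits, by 0.48. The tetraspanin Cd9 fell to 53.6 ± 5.78 CPM in AAV-iIL12, against 88.4 ± 9.30 CPM in AAV-iLuc. Sdc1, a syndecan, fell with a log2 fold change of -0.95, Plaur, the urokinase receptor, with -0.81 and Cd44, the hyaluronan receptor, with -0.35. Bsg, with the highest mean CPM of the list, stood at 1148 ± 71.0 CPM with AAV-iIL12 and 1079 ± 46.9 with AAV-iLuc and did not pass (edgeR adjusted p = 0.241).

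**Figure D5:**
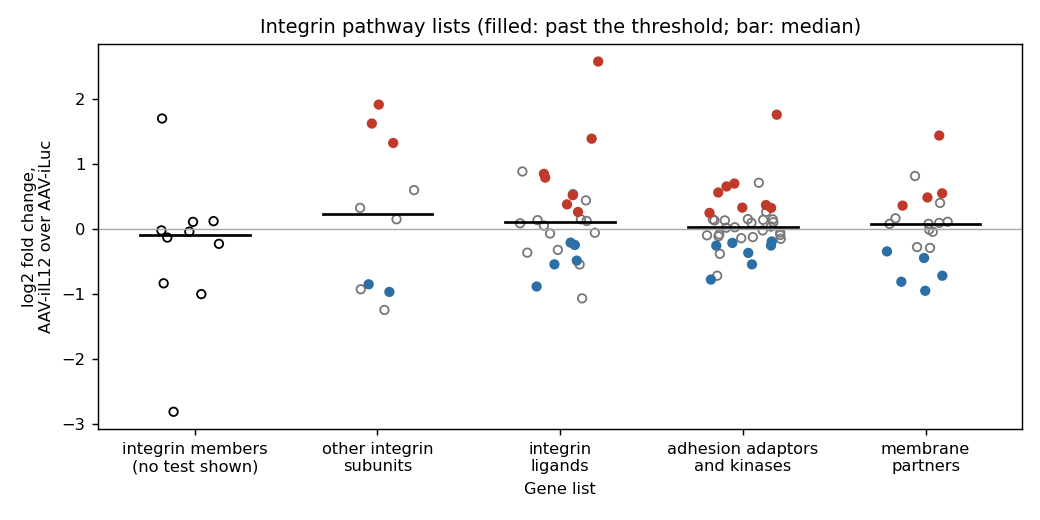
Log2 fold change of AAV-iIL12 over AAV-iLuc for the tested genes of each list, with genes past the threshold filled in red (higher) or blue (lower), others open, and a bar at the median; the 10 integrin members are unfilled because no test is given for them. Medians lie between -0.09 and 0.23, and Itga4 at -2.82 is the lowest point.

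The genes whose levels over the 7 libraries were most like those of Itga4, by Euclidean distance between centred log2 CPM, were Zfp469 (distance 0.626), Prokr1 (0.678), Mmp15 (0.744), Xylt1 (0.844) and Fhod3 (0.877). They were lower in AAV-iIL12 by like amounts, with log2 fold changes from -3.45 (Mmp15) to -2.31 (Xylt1). Those nearest to Itga6 were Cmc2 (0.156), Ss18l2 (0.161), Tfdp1 (0.165), Tspan7 (0.190) and Fam111a (0.194), with log2 fold changes from -1.01 to -0.90. The distances were taken over 11994 tested genes with a standard symbol and are a description of these libraries.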

How the data were processed

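The authors deposited unnormalized counts of fragments for each gene. The program was featureCounts 1.6.0, per the file headers, run on exons grouped by gene identifier, reverse-stranded and paired-end, with GENCODE vM32. Per the submitters' processing notes, STAR 2.7.9a, FastQC 0.11.8, edgeR, limma and GRCm39 were used. Symbols came from GENCODE vM21 by gene identifier, which matched 52029 of 56953 identifiers holding 99.4% of counts. Sequences are RefSeq promoter windows on GRCm38.p6.

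Groups were compared in edgeR 4.0.16 (R 4.3.3) using its quasi-likelihood F test, with TMM, filterByExpr and Benjamini-Hochberg adjustment at 0.05 over 13990 genes. SEs come from the F statistic. RPKM uses the exon length of the files. Each library is 1 mouse per the design text. Marker sums were compared by two-sided exact permutation over 35 splits, smallest p 0.0286.

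The members and lists were chosen with earlier results of these data known. Named genes were the members, Vcam1, Fn1, Pxn, Itgb4, Itgb7, and from each of 4 lists up to 4 genes per direction with the smallest p and the most abundant one; from each marker list the most abundant gene and any at 0; and the 5 nearest profiles of Itga4 and Itga6. Itgal, Itgb2, Tgfbi, Nedd9, Pmel, Tyr, Tagln, Myh11, Acta1, Myod1 and other marker genes, where named, were chosen after their values were seen.

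No library was a copy of another: within groups, every pair varied beyond counting error (chi-square per degree of freedom 3.28 to 12.8). Alternatives were other scalings, filters, DESeq2 1.42.0, limma-voom (limma 3.58.1), the replicate number as a block, and each library left out.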

Additional observations from a re-analysis of the deposited data

Results flagged for a closer look

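Among 60 values checked in the 4 AAV-iLuc libraries, 3 had a library far from the rest of its group, and chance alone gives about 1 in 20. None of these values was that of a single integrin gene, but the leukocyte list holds the integrin genes Itgb2 and Itgam. Itgam had 18 counts in AAV-iLuc replicate 1 and 0 in the other AAV-iLuc libraries. The leukocyte list summed to 25.3 CPM in AAV-iLuc replicate 1, against 7.62 to 10.1 CPM in the other 3 libraries. The erythroid list summed to 1.09 CPM in the same library, against at most 0.119 CPM in the others. The keratinocyte list summed to 0.0515 CPM in AAV-iLuc replicate 4, which was 1 count of Dsg3, where the others had 0.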

How the results depend on the processing

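Over 15 alternatives the log2 fold change ran from -2.91 to -2.66 for Itga4 and from -1.10 to -0.96 for Itga6, given as a description since the members were chosen on this contrast. Members near 0 changed sign: Itga3 to 0.0304 with the replicate block and, with libraries left out, in a range of -0.121 to 0.0672, and Itga9 in a range of -0.0968 to 0.0548. Fn1 turned to -0.00735 with library size only and ranged from -0.0135 to 0.138 with libraries left out, and Bsg turned to -0.000604 with library size only.

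With library size only, 4 other integrin subunits and 13 adaptors fell, and with upper quartile scaling 4 and 12, against 2 and 7. Genes that fell among all 13990 were 4460 and 4225 under these scalings, against 3316. Without AAV-iLuc replicate 1, 5 other subunits rose, in a range of 2 to 5 over the libraries left out. The drop in the Itga4 share of the alpha level was -12.8 percentage points on undivided CPM, against -8.82, and that of Itga6 was -4.45 with the longest transcript length, chosen after seeing the data, against -3.03. Sums of marker lists that did not pass turned sign: smooth muscle to -0.294 and skeletal muscle to -0.0473 CPM with library size only. With libraries left out, smooth muscle ran from -0.354 to 1.22, skeletal muscle from -0.122 to 0.238, endothelium from -4.15 to 1.56, fibroblasts from -33.2 to 4.05 and erythroid genes from -0.301 to 0.127 CPM. In these cases the cause was not tested.

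The replicate numbers did not pair the libraries: deviations of same-numbered libraries correlated at 0.0876, 0.0337 and -0.0485. Not every library correlated best with its own number. With the replicate block 2832 genes rose and 2828 fell, against 3292 and 3316, and 2 other integrin subunits rose and 3 fell, Itgb7 no longer passing (log2 fold change 1.10, edgeR adjusted p = 0.0999).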
